A study of Mus musculus with 40 samples.

Results

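The genes described here are 10 members of the insulin, IGF, AKT and FoxO signalling route: the receptors Insr and Igf1r, the receptor adaptors Irs1, Irs2 and Grb10, the kinases Akt1 and Akt2, and the transcription factors Foxo1, Foxo3 and Foxo4. They were found by gene symbol among the 22844 genes of the deposited tables, and all 10 passed the filter on low counts. Messenger RNA was sequenced from the extensor digitorum longus (EDL), a fast hindlimb muscle of the mouse, in 8 groups of 5 libraries, 40 in all. Control mice (CON) carried loxP-flanked Tsc1 alleles (genotype Tsc1fl/fl) without Cre, and TSCmKO mice were a constitutive knockout of Tsc1 in skeletal muscle fibers (the promoter that drives Cre is not given in the sources used here), so that both genotypes shared the floxed allele and the strain label Tsc1tm1Djk/J. Mice were 3 months (3mCON, 3mTSCmKO) or 9 months old (9mCON, 9mTSCmKO) and received intraperitoneal vehicle or rapamycin (written +RM, as in 9mCON+RM) over 3 days. The rapamycin dose was 4 mg per kg according to the labels, whereas the study text gives a higher one. Cells of the muscle other than fibers were not targeted by the knockout, and rapamycin was given to the whole animal. The study describes the controls as littermates, but nothing in the labels ties libraries to litters or batches. Litters could therefore not be modelled, and p-values measure the spread between these libraries.

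Insulin and the insulin-like growth factors bind the receptors encoded by Insr and Igf1r, which phosphorylate the adaptors IRS1 and IRS2. These recruit phosphoinositide 3-kinase (PI3K), whose lipid product activates AKT, and AKT in turn releases mTORC1 from inhibition by the TSC complex and keeps FoxO transcription factors out of the nucleus. Active mTORC1 and its kinase S6K are known to dampen the route from behind, by phosphorylating IRS proteins and by stabilising the inhibitory adaptor GRB10. In muscle, FoxO factors that are free of AKT drive the ubiquitin ligase genes Fbxo32 and Trim63 and genes of autophagy, and rapamycin blocks mTORC1 and with it the feedback. The comparisons below ask how transcripts of the route stood in muscle with sustained mTORC1 activity and what short mTORC1 inhibition did to them.

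Stretches of 3 promoters are shown because Irs2, Irs1 and Akt1 gave the 3 widest changes among the members with rapamycin in 9mTSCmKO. They come from RefSeq windows (GRCm38.p6) that run from 250 bases before to 50 bases after a listed transcript start, of which 13 windows matched 8 of the 10 members. Each is written 5′ to 3′ in the direction of its gene, which lies on the minus strand, and none of the 3 overlapped an annotated exon of these genes. Capitals mark the E-box CACGTG, the insulin response element TGTTTTG and the FoxO binding element TGTTTAC, each searched on both strands. The Irs2 stretch (chr8:11008930-11009029) and the Irs1 stretch (chr1:82291440-82291569) end 1 base before the start, and the Akt1 stretch (chr12:112674985-112675074) ends 101 bases before it.
Irs2: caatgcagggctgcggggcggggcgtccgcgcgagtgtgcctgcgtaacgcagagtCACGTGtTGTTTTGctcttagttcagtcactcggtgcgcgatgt
Irs1: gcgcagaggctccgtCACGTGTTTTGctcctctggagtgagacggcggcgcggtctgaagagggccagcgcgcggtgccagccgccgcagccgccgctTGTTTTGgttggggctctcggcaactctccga
Akt1: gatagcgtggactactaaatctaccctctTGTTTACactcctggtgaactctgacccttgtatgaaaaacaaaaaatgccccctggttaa
In both adaptor promoters an E-box stood next to an insulin response element, overlapping it in Irs1, where the last letters of the E-box are the first of the element, and separated from it by 1 base in Irs2. Irs1 held another insulin response element nearer to the start, and Akt1 held 1 FoxO binding element. Among all 32851 promoter windows of this length, 7.15% held the E-box, 6.28% the insulin response element, 3.65% the FoxO binding element and 0.408% both of the first 2 motifs. A match describes letters only, and the motifs were chosen with these sequences in view.

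Total counts ran from 8883870 to 35224669 per library, and members had between 200 (Igf1r) and 11471 (Akt2) counts in a library. The Tsc1 transcript, the target of the knockout, stood at 116 ± 19.7 CPM (counts relative to library size, scaled by the TMM method, mean ± SD, n = 5) in 3mCON and 29.3 ± 1.88 CPM in 3mTSCmKO. At 9 months it was at 83.5 ± 27.9 in 9mCON and 28.6 ± 4.34 in 9mTSCmKO (log2 fold change -1.55 ± 0.17 SE, adjusted p = 2.33e-09). Markers of skeletal muscle fibers (8 genes, among them Ckm and Myh4) summed to 91456 CPM or more in every library. They summed to 91456 to 107906 CPM in 9mTSCmKO against 141824 to 152520.0 CPM in 9mCON, with 5 of 8 lower and none at 0. With rapamycin the sum was 134689 to 163300.0 CPM in 9mTSCmKO+RM, above every vehicle library (4 of 8 higher and 1 lower), and 173376 to 181537 CPM in 9mCON+RM, again without overlap (1 of 8 higher). Between genotypes at 9 months 3 of 5 endothelial, 2 of 4 adipocyte and 1 of 4 Schwann cell markers were also lower. With rapamycin in 9mTSCmKO 1 of 3 satellite cell markers was higher and 1 of 4 Schwann cell markers lower. Of 5 endothelial markers 1 was higher and 1 lower there. With rapamycin in 9mCON 1 of 4 Schwann cell markers was lower. The part of these markers in the genotype and rapamycin results at 9 months was not tested. According to the labels, inserts measured 175 to 239 nt in the 3-month libraries and 223 to 308 nt in all but 1 of the 9-month libraries, so that age and library preparation cannot be told apart. At 9 months, 1 library in each group also stood apart in transcript length. The index used here is the median deviation of 1796 genes with transcripts of at least 6000 nt minus that of 1651 genes with transcripts of at most 1500 nt, on the log2 scale. It was -1.02 in 9mCON replicate 2, -0.79 in 9mCON+RM replicate 1, -1.04 in 9mTSCmKO replicate 3 and -0.83 in 9mTSCmKO+RM replicate 1, against -0.38 or more in the other 36 libraries. Calls for members that changed when these 4 libraries were left out are given with both values.

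The members differed widely in level when compared per transcript length. In 3mCON, Akt2, the insulin-responsive AKT isoform of muscle and fat, was the highest at 254 ± 27.2 TPM, the deposited unit that accounts for transcript length. It was followed by Foxo4 at 163 ± 13.6, Akt1 at 83.9 ± 8.23, Insr at 46.8 ± 3.45 and Grb10 at 27.1 ± 3.76 TPM. These 5 levels did not overlap between neighbours over the libraries of that group. Irs1 (20.9 ± 4.34), Foxo3 (15.6 ± 2.51), Irs2 (12.05 ± 2.84), Igf1r (9.02 ± 1.13) and Foxo1 (7.93 ± 3.31 TPM) followed, and each of them overlapped with the next higher one. Akt2 and Foxo4 were the first and second in mean TPM in all 8 groups, but overlapped in 5 of them. Irs2 was the seventh in 9mCON at 13.4 ± 4.28 TPM and the last in 3mTSCmKO+RM and in 9mTSCmKO, at 5.86 ± 1.76 TPM in the latter. At most 0.76% of their 31-mers (Foxo1) occurred in coding transcripts of other genes of the table.

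**Figure D1:**
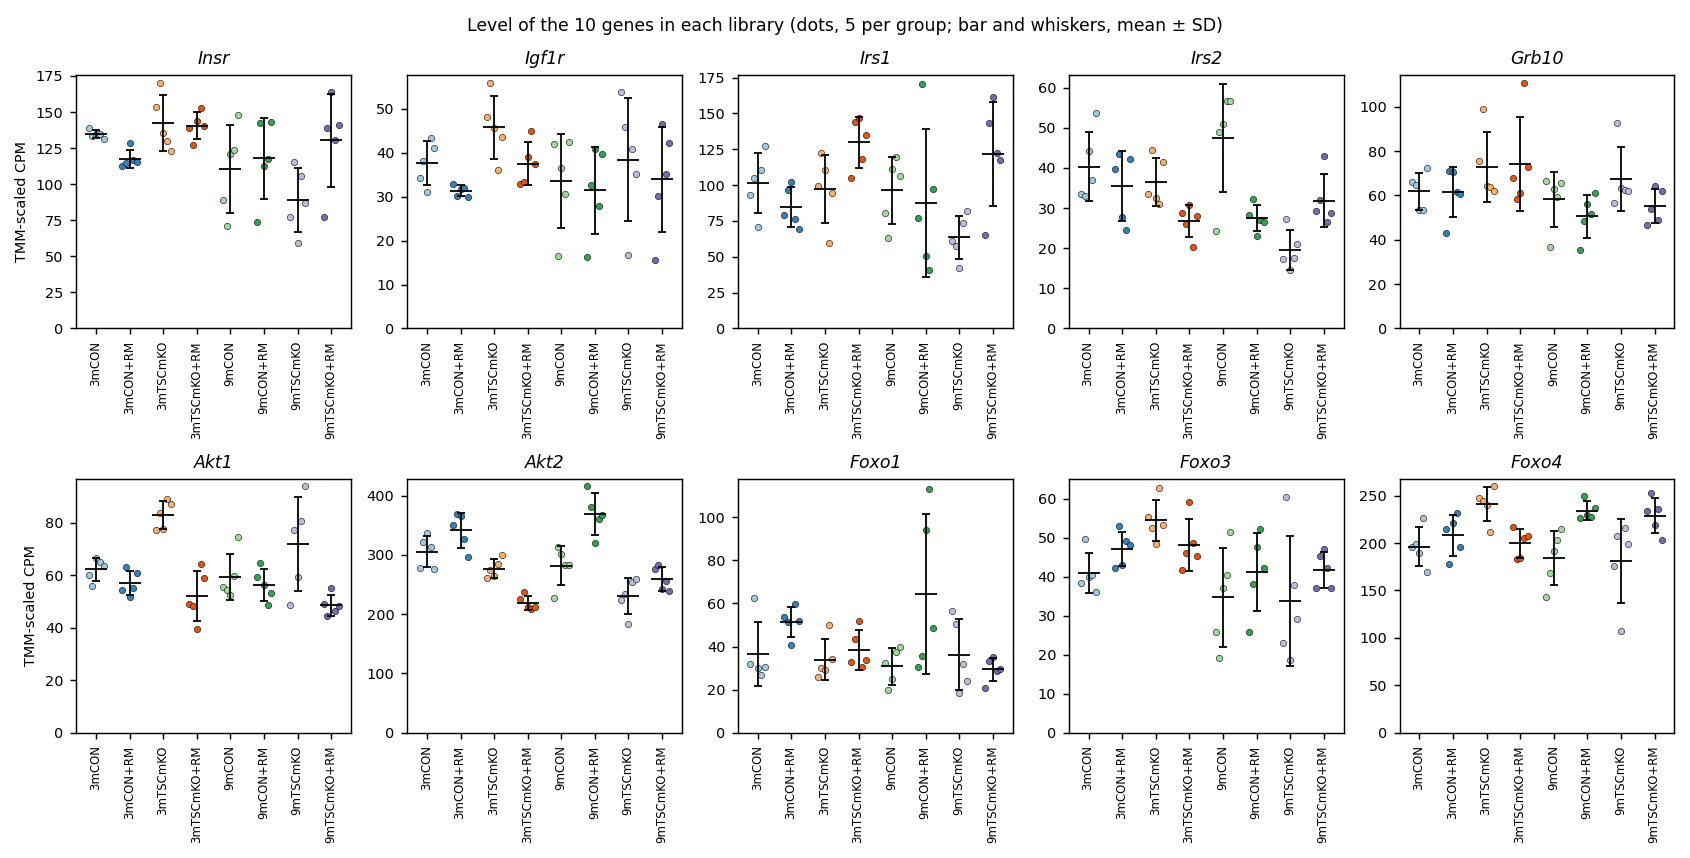
TMM-scaled CPM (vertical axis, from 0) of each of the 10 genes in the 8 groups (horizontal axis), with 1 dot per library and mean ± SD of 5 libraries. Irs2 is highest in 9mCON (mean 47.5 CPM) and lowest in 9mTSCmKO (mean 19.6 CPM), whereas Akt1 is highest in 3mTSCmKO (mean 83.0 CPM).

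In the comparison of genotypes at 9 months, 2 of 10 members passed an adjusted p of 0.05 (Irs2 and Akt2, both lower in TSCmKO), against 37.9% of the 13543 genes tested. At 3 months 1 of 10 passed (Akt1, higher), against 19.8% of genes. Rapamycin changed 5 of 10 members in 9mTSCmKO (Insr, Irs1, Irs2 and Foxo4 rose and Akt1 fell), against 32.6% of genes, and 2 of 10 in 3mTSCmKO (Akt1 and Akt2 fell), against 23.6%. In 9mCON rapamycin changed 3 of 10 (Akt2 and Foxo1 rose, Irs2 fell), against 11.8% of genes. In 3mCON no member passed with edgeR against 0.679% of genes, none had an unadjusted p under 0.05, and none passed with DESeq2 or limma. The median log2 fold change of the members was -0.04 between genotypes at 9 months (-0.02 over all genes), 0.16 at 3 months (-0.02), 0.24 with rapamycin in 9mTSCmKO (-0.04) and -0.22 in 3mTSCmKO (0.01). In this fit of all libraries, Igf1r and Grb10 passed in none of the 15 contrasts. Where limma on log2 TPM, at a pseudocount of 1 and of 0.1, a fit of only the groups compared or the leaving out of 1 library ended or gave the call of a member, this is given beside it.

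**Figure D2:**
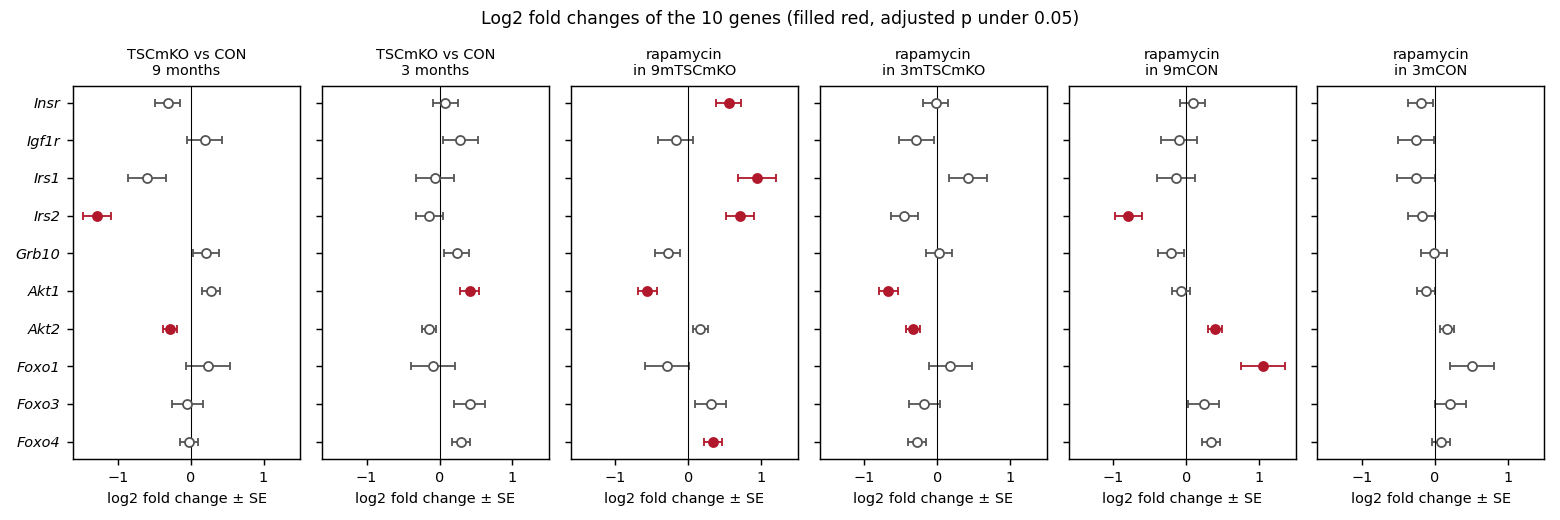
Log2 fold change ± SE (horizontal axis) of the 10 genes (rows) in 6 comparisons (panels), with filled red symbols for an adjusted p under 0.05 in edgeR. Irs2 lies lowest between genotypes at 9 months (-1.28) and to the right of 0 with rapamycin in 9mTSCmKO (0.70), and all members are open symbols with rapamycin in 3mCON.

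Irs2, an adaptor whose gene is known in liver to be repressed by insulin and activated by FoxO factors, had the widest genotype difference of the members. In 9mCON the 5 libraries had 24.3, 48.9, 50.8, 56.7 and 56.8 CPM, and in 9mTSCmKO 17.4, 27.3, 14.5, 17.7 and 21.0 CPM. The control libraries lay above every TSCmKO library except for 9mCON replicate 1, which was inside the TSCmKO range. Irs2 was lower in 9mTSCmKO (log2 fold change -1.28 ± 0.19 SE, adjusted p = 1.27e-06). In 3mCON the libraries had 33.6, 33.1, 44.1, 37.1 and 53.7 CPM and in 3mTSCmKO 33.5, 44.4, 32.5, 30.9 and 41.5 CPM, and these ranges overlapped (log2 fold change -0.14 ± 0.19 SE, adjusted p = 0.654). The genotype difference was itself larger at 9 than at 3 months (interaction -1.14 ± 0.27 SE on the log2 scale, adjusted p = 0.00857), in which Irs2 was 1 of 10 members that passed, against 4.94% of genes.

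Rapamycin moved Irs2 in opposite directions in the 2 genotypes at 9 months. The libraries of 9mTSCmKO+RM had 29.2, 31.9, 43.0, 26.4 and 28.7 CPM, all but replicate 4 above the highest vehicle library (log2 fold change 0.70 ± 0.19 SE, adjusted p = 0.00416). In 9mCON+RM they had 28.3, 32.1, 23.2, 26.9 and 26.6 CPM, below the vehicle controls other than 9mCON replicate 1, and Irs2 fell (log2 fold change -0.79 ± 0.19 SE, adjusted p = 0.00456). The interaction of rapamycin and genotype passed at 9 months (1.496 ± 0.27 SE on the log2 scale, adjusted p = 0.000878), where Irs2 was 1 of 10 members, against 4.87% of genes. Under rapamycin the means of 9mTSCmKO+RM and 9mCON+RM were 31.8 ± 6.54 and 27.4 ± 3.25 CPM. This difference between treated genotypes did not pass (log2 fold change 0.22 ± 0.19 SE, adjusted p = 0.477). At 3 months, the libraries of 3mTSCmKO+RM had 28.7, 25.9, 30.8, 20.3 and 27.9 CPM, each below every vehicle 3mTSCmKO library, with a fold change that did not pass (log2 fold change -0.45 ± 0.19 SE, adjusted p = 0.0767) except in the fit of only these groups (adjusted p = 0.014). The calls for Irs2 in both genotype and rapamycin comparisons at 9 months and in both interactions were kept without any 1 library and without the 4 libraries low in long transcripts.

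Irs1, the other main adaptor of muscle, shared the response to rapamycin in 9mTSCmKO. The vehicle libraries had 61.3, 57.7, 42.4, 73.7 and 82.2 CPM and the treated ones 65.3, 143, 162, 122 and 118 CPM. All treated libraries but 1 exceeded all vehicle ones: 9mTSCmKO+RM replicate 1, one of the 4 libraries low in long transcripts, stayed within the vehicle range. Irs1 thus rose (log2 fold change 0.94 ± 0.26 SE, adjusted p = 0.00536). Between genotypes at 9 months Irs1 did not pass (log2 fold change -0.60 ± 0.26 SE, adjusted p = 0.0656), except without 9mCON replicate 2 (log2 fold change -0.72, adjusted p = 0.0326) or without 9mTSCmKO replicate 5. Between treated genotypes it passed at 3 months in the fit of only these groups (log2 fold change 0.64, adjusted p = 0.00182), and at 9 months without 9mCON+RM replicate 2 (log2 fold change 0.87, adjusted p = 0.00779). The interaction of rapamycin and genotype at 9 months passed for Irs1 with DESeq2 (log2 fold change 1.07, adjusted p = 0.0465) and without 9mCON+RM replicate 2 (log2 fold change 1.48, adjusted p = 0.00631) or without 9mCON replicate 2 or 9mTSCmKO+RM replicate 1, but not in the fit of all libraries (adjusted p = 0.0768). In 9mCON+RM the spread was wide, at 77.3, 170.4, 50.4, 40.8 and 97.6 CPM, and replicates 3 and 4, the lowest for Irs1, were the highest for Foxo1 (below). As a share of the summed TPM of both adaptors, Irs2 made up 41.4% ± 8.10 in 9mCON, 31.1% ± 6.01 in 9mTSCmKO and 28.3% ± 6.34 in 9mTSCmKO+RM, and the ranges of these groups overlapped. In 3mTSCmKO+RM the share was 23.0% ± 3.28, below every library of 3mTSCmKO (29.8 to 42.8%).

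Grb10, the inhibitory adaptor whose protein is a substrate of mTORC1, showed no change that passed in the fit of all libraries. With the long-transcript index as a term (chosen after the data were seen) it passed with rapamycin in 9mTSCmKO (log2 fold change -0.41, adjusted p = 0.03). Means lay between 50.5 ± 9.80 CPM in 9mCON+RM and 74.1 ± 21.3 CPM in 3mTSCmKO+RM. Single libraries stood out, such as 9mTSCmKO replicate 2 at 92.4 CPM against 56.8 to 63.3 CPM in the rest of its group. Across all pairwise contrasts its log2 fold changes ran from -0.29 (rapamycin in 9mTSCmKO) to 0.27 (genotype under rapamycin at 3 months), each with an SE of 0.17 to 0.18. Its close relative Grb14, also an inhibitor of the insulin receptor, was in contrast higher in 9mTSCmKO than in 9mCON (log2 fold change 1.11 ± 0.19 SE, adjusted p = 1.5e-05) and fell with rapamycin there (log2 fold change -0.86 ± 0.19 SE, adjusted p = 0.000589). Its genotype difference was larger at 9 than at 3 months (interaction 1.45 on the log2 scale, adjusted p = 0.000875).

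Of the receptors, Insr rose with rapamycin in 9mTSCmKO. Vehicle libraries had 77.4, 115, 59.5, 106 and 87.2 CPM and treated ones 77.0, 139, 164, 131 and 141 CPM (log2 fold change 0.55 ± 0.17 SE, adjusted p = 0.0131). All treated libraries but 1 lay above all vehicle libraries, and 9mTSCmKO+RM replicate 1 was lower than all but 9mTSCmKO replicate 3. Of calls that 1 library decides, each library is named here and below with the log2 fold change and adjusted p without it. The call for Insr was lost without 9mTSCmKO replicate 3 (0.44, adjusted p = 0.0551) or 9mTSCmKO+RM replicate 3 (0.45, adjusted p = 0.0549). It was also lost with limma (adjusted p = 0.0573 and 0.0602) and in the fit of only these groups (adjusted p = 0.0827). It held without all 4 libraries low in long transcripts (log2 fold change 0.57, adjusted p = 0.000555), and with the long-transcript index as a term, a setting chosen after the data were seen, it passed at a smaller size (log2 fold change 0.34, adjusted p = 0.00193). Between genotypes at 9 months Insr did not pass (log2 fold change -0.31 ± 0.17 SE, adjusted p = 0.15), but did without the 4 libraries (log2 fold change -0.31, adjusted p = 0.0463) or without 9mCON replicate 2 alone, at -0.44 (adjusted p = 0.0394). Between treated genotypes at 3 months it passed with the index as a term (log2 fold change 0.26, adjusted p = 0.0322) and in the fit of only these groups (adjusted p = 0.0115). In 3mCON the level was nearly constant over libraries, at 139, 133, 135, 135 and 131 CPM, and each 3mCON+RM library was lower, at 112, 114, 129, 117 and 115 CPM. That difference was small and did not pass (log2 fold change -0.20 ± 0.17 SE, adjusted p = 0.862), and Insr was 1 of 10 members whose groups did not overlap in that comparison, against 5.41% of genes. Insr carries one of the longest transcripts of the members and its level was the lowest of its group in each of the 4 libraries low in long transcripts.

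Igf1r, the receptor for IGF1 and IGF2, passed in no contrast of the fit of all libraries. Its group means lay between 31.3 ± 1.26 CPM in 3mCON+RM and 45.8 ± 7.17 CPM in 3mTSCmKO. The widest log2 fold changes among the pairwise contrasts were 0.28 (genotype at 3 months) and -0.29 (rapamycin in 3mTSCmKO), with an SE of 0.24. In the 4 libraries low in long transcripts Igf1r was at 15.6 to 16.7 CPM, against 27.8 to 53.7 CPM in the other libraries at 9 months. With the long-transcript index as a term Igf1r passed at 9 months between genotypes (log2 fold change 0.37, adjusted p = 0.0338) and with rapamycin in 9mTSCmKO (log2 fold change -0.46, adjusted p = 0.0126). Between treated genotypes at 3 months it passed in the fit of only these groups (log2 fold change 0.28, adjusted p = 0.0423).

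Among the kinases, Akt1 was higher in TSCmKO at 3 months and fell with rapamycin in TSCmKO at both ages. At 3 months the control libraries had 60.2, 56.0, 66.6, 64.9 and 63.5 CPM and the TSCmKO libraries 77.2, 83.9, 77.7, 89.1 and 87.2 CPM. Every TSCmKO library lay above every control library (log2 fold change 0.41 ± 0.13 SE, adjusted p = 0.0167), which held for 1 of 10 members in this comparison, against 19.6% of genes. The call was lost with limma (adjusted p = 0.0541 and 0.0567). With rapamycin Akt1 fell to 49.1, 48.3, 39.7, 64.5 and 58.9 CPM, again without overlap (log2 fold change -0.67 ± 0.13 SE, adjusted p = 0.000115). Akt1, Akt2 and Irs2 were the 3 of 10 members whose groups did not overlap in that comparison, against 21.1% of genes. With rapamycin in 3mTSCmKO 3 of 8 fiber markers were higher and 1 lower, and their sum was 93549 to 162581 CPM with vehicle and 143922 to 176064 CPM with rapamycin. Higher were also 2 of 5 macrophage markers (sum 28.2 to 57.9 and 40.8 to 102 CPM), 1 of 4 fibroblast markers (803 to 1335 and 1129.5 to 2102 CPM) and 1 of 5 tendon markers (92.7 to 306 and 215 to 403 CPM). None was at 0, and their part in the rapamycin results in 3mTSCmKO, here and below, was not tested. At 9 months 9mTSCmKO had 48.6, 77.1, 59.3, 80.6 and 94.1 CPM, with replicate 1 below all of the control libraries (55.4, 54.6, 52.5, 59.7 and 74.6 CPM), and the genotype difference did not pass (log2 fold change 0.28 ± 0.13 SE, adjusted p = 0.0824), except without 9mTSCmKO replicate 1 (log2 fold change 0.39, adjusted p = 0.00984) or without 9mCON replicate 5 or 9mTSCmKO replicate 3. Rapamycin brought it to 49.1, 44.4, 55.0, 46.5 and 48.2 CPM (log2 fold change -0.56 ± 0.13 SE, adjusted p = 0.000737). In control muscle Akt1 stayed at 56.4 ± 6.11 CPM with rapamycin at 9 months and 57.1 ± 4.72 CPM at 3 months. The interaction of rapamycin and genotype did not pass for Akt1, at -0.49 on the log2 scale at the later age (adjusted p = 0.102) and -0.55 at the earlier one (adjusted p = 0.0881). At 3 months it passed with the long-transcript index as a term (log2 fold change -0.55, adjusted p = 0.0497) and in the fit of only these groups (adjusted p = 0.0174), and without 3mTSCmKO+RM replicate 4 (log2 fold change -0.63, adjusted p = 0.0436). At 9 months it passed without 9mTSCmKO replicate 1 (log2 fold change -0.62, adjusted p = 0.02) or without 9mCON replicate 5.

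Akt2, which carries most of the insulin signal to glucose transport in muscle, was lower in TSCmKO at 9 months under vehicle and at both ages under rapamycin. In 9mCON the libraries had 227, 313, 302, 282 and 284 CPM and in 9mTSCmKO 224, 234, 184, 255 and 260.1 CPM, with 9mCON replicate 1 inside the TSCmKO range. The difference passed (log2 fold change -0.28 ± 0.10 SE, adjusted p = 0.0187). It did not pass without 9mCON replicate 2 (-0.24, adjusted p = 0.0527), 9mCON replicate 3 (-0.24, adjusted p = 0.0688) or 9mTSCmKO replicate 3 (-0.21, adjusted p = 0.0814). Nor did it pass without the 4 libraries low in long transcripts (log2 fold change -0.16, adjusted p = 0.181), with limma (adjusted p = 0.0509 and 0.0506) or in the fit of only these groups (adjusted p = 0.232). Rapamycin raised Akt2 in 9mCON to 417, 380.2, 321, 361 and 368 CPM, above every vehicle library (log2 fold change 0.39 ± 0.10 SE, adjusted p = 0.00601). The rise did not pass in the fit of only these groups (adjusted p = 0.106). Akt2 and Foxo4 were the 2 of 10 members without overlap there, against 6.64% of genes. In 3mTSCmKO, where vehicle libraries had 260.5, 275, 264, 285 and 299.5 CPM, it fell to 226, 237, 212, 208 and 212 CPM, also without overlap (log2 fold change -0.34 ± 0.10 SE, adjusted p = 0.00866), a call lost with limma (adjusted p = 0.0947 and 0.0973).

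At 3 months the vehicle groups did not pass for Akt2 (log2 fold change -0.14 ± 0.10 SE, adjusted p = 0.333), whereas the treated groups were apart at both ages. The treated TSCmKO libraries at 9 months had 277, 284, 243, 255 and 238 CPM, all below the treated controls of that age (log2 fold change -0.51 ± 0.10 SE, adjusted p = 0.00012). At 3 months the treated controls had 350.4, 369, 365, 327 and 297 CPM and every treated TSCmKO library was lower (log2 fold change -0.64 ± 0.10 SE, adjusted p = 9.97e-06). Akt2 was 1 of 10 members without overlap under rapamycin at 9 months, against 13.6% of genes, and Akt2 and Irs1, which was higher in TSCmKO, were 2 of 10 at 3 months, against 14.3%. Members that passed between genotypes under rapamycin were 2 of 10 at 9 months (Akt2 and Foxo1), against 20.6% of genes, and 1 of 10 at 3 months, against 10%. Between the treated genotypes at 9 months 2 of 8 fiber and 2 of 5 endothelial markers were lower and 1 of 5 macrophage markers higher, and at 3 months 1 of 5 tendon markers was higher. Their part in these results was not tested. The interaction of rapamycin and genotype at 3 months passed for Akt2 (-0.50 ± 0.14 SE on the log2 scale, adjusted p = 0.0297) as 1 of 10 members, against 3.45% of genes. It was lost with limma (adjusted p = 0.155 and 0.16) and with no filter on low counts (adjusted p = 0.0918). That call was lost without any 1 of 7 libraries, namely 3mCON replicate 1 (-0.47, adjusted p = 0.0621), 3mCON replicate 5 (-0.46, adjusted p = 0.0667), 3mCON+RM replicate 1 (-0.49, adjusted p = 0.0541), 3mCON+RM replicate 2 (-0.47, adjusted p = 0.0633), 3mCON+RM replicate 3 (-0.47, adjusted p = 0.058), 3mTSCmKO replicate 5 (-0.47, adjusted p = 0.0605) or 3mTSCmKO+RM replicate 4 (-0.48, adjusted p = 0.0589).

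As a description of the balance between the kinases, Akt1 made up 24.8% ± 1.51 of the summed TPM of Akt1 and Akt2 in 3mCON and 33.1% ± 0.955 in 3mTSCmKO, without overlap (22.3 to 26.3% and 31.9 to 34.5%). At 9 months the shares were 24.8% ± 3.20 in 9mCON and 32.6% ± 4.33 in 9mTSCmKO, and 18.6% ± 1.83 and 21.98% ± 2.13 with rapamycin. The genotypes overlapped there, at 21.1 to 27.9% and 25.3 to 36.9% with vehicle and 16.4 to 20.6% and 18.9 to 24.4% with rapamycin.

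**Figure D3:**
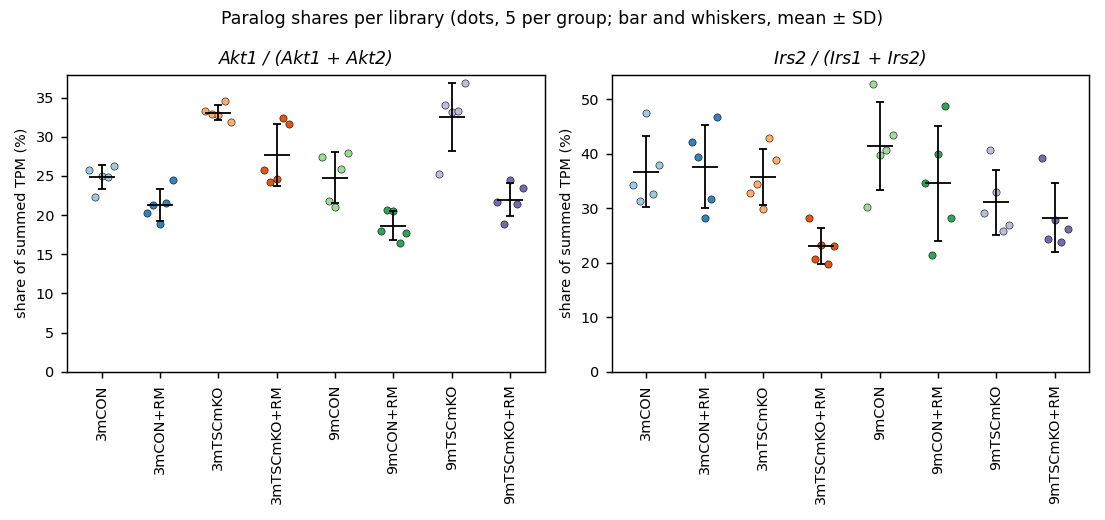
Share of summed TPM in percent (vertical axes, from 0) taken by Akt1 among Akt1 and Akt2 and by Irs2 among Irs1 and Irs2, per library in the 8 groups, with mean ± SD of 5 libraries. The Akt1 share lies at 31.9 to 34.5% in 3mTSCmKO, above all 3mCON libraries.

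Foxo4, the highest of the FoxO genes in TPM, had 176, 207, 107, 216 and 199 CPM in 9mTSCmKO and 233, 252, 219, 236 and 203 CPM in 9mTSCmKO+RM. All treated libraries but replicate 5 lay above every vehicle library, and 9mTSCmKO replicate 3 was the lowest of all (log2 fold change 0.34 ± 0.12 SE, adjusted p = 0.0326). This was lost without 9mTSCmKO replicate 1 (0.30, adjusted p = 0.0778), 9mTSCmKO replicate 3 (0.20, adjusted p = 0.15), 9mTSCmKO+RM replicate 1 (0.32, adjusted p = 0.0573), 9mTSCmKO+RM replicate 2 (0.30, adjusted p = 0.0843) or 9mTSCmKO+RM replicate 4 (0.31, adjusted p = 0.0697). It was also lost without the 4 libraries low in long transcripts (log2 fold change 0.19, adjusted p = 0.179) and in the fit of only these groups (adjusted p = 0.196). In 9mCON+RM all libraries, at 226, 250.04, 229.8, 228 and 237 CPM, lay above those of 9mCON, at 143, 169, 191, 204 and 215 CPM, yet the fold change just missed the threshold (log2 fold change 0.35 ± 0.12 SE, adjusted p = 0.0611). It passed there without the 4 libraries (log2 fold change 0.34, adjusted p = 0.0398), with the long-transcript index as a term (log2 fold change 0.33, adjusted p = 0.0302), with DESeq2 and without 9mCON replicate 5 (log2 fold change 0.41, adjusted p = 0.0369). At 3 months Foxo4 did not pass between genotypes (log2 fold change 0.30 ± 0.12 SE, adjusted p = 0.087) or with rapamycin in TSCmKO (log2 fold change -0.27 ± 0.12 SE, adjusted p = 0.109). Without the 4 libraries it passed in both (adjusted p = 0.0292 and 0.0397), as it did with the index as a term (adjusted p = 0.0298 and 0.0419) and in the fit of only the groups compared. The genotype difference at 3 months also passed without 3mTSCmKO replicate 4 (log2 fold change 0.36, adjusted p = 0.0478).

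Foxo1, the FoxO factor most tied to insulin and fasting in muscle, rose with rapamycin in 9mCON, unevenly over the animals. The vehicle libraries had 32.2, 19.6, 24.9, 37.6 and 39.6 CPM and the treated ones 30.3, 35.6, 94.1, 113 and 48.7 CPM. Replicates 3 and 4 of the treated group stood far above the vehicle mean of 30.8 CPM, and replicates 1 and 2 lay within the vehicle range. The rise passed (log2 fold change 1.06 ± 0.30 SE, adjusted p = 0.0185). It did not pass without 9mCON replicate 2 (0.93, adjusted p = 0.0516), 9mCON+RM replicate 3 (0.87, adjusted p = 0.0585) or 9mCON+RM replicate 4 (0.76, adjusted p = 0.101), with limma (adjusted p = 0.0972 and 0.101) or in the fit of only these groups (adjusted p = 0.105). In 9mTSCmKO+RM the libraries had 20.8, 33.3, 34.9, 28.7 and 29.4 CPM, and the genotypes differed under rapamycin (log2 fold change -1.12 ± 0.30 SE, adjusted p = 0.0063), a call lost with limma (adjusted p = 0.0626 and 0.0699). The interaction itself did not pass (-1.36 ± 0.43 SE on the log2 scale, adjusted p = 0.0563), but passed without the 4 libraries low in long transcripts (log2 fold change -1.48, adjusted p = 0.034), with the long-transcript index as a term, with DESeq2 and without 9mCON+RM replicate 1 (log2 fold change -1.54, adjusted p = 0.0264) or without 9mCON+RM replicate 2, 9mTSCmKO replicate 3 or 9mTSCmKO replicate 5. At 3 months Foxo1 had 36.4 ± 14.8 CPM in 3mCON, where replicate 2 was at 62.6 CPM, and 51.4 ± 6.85 CPM in 3mCON+RM (log2 fold change 0.51 ± 0.30 SE, adjusted p = 0.677).

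Foxo3, the factor best known for driving atrophy genes, passed in no comparison of genotypes or treatments in the fit of all libraries. It stood at 40.9 ± 5.15 CPM in 3mCON and 54.5 ± 5.34 CPM in 3mTSCmKO (log2 fold change 0.42 ± 0.21 SE, adjusted p = 0.174). This difference passed with the long-transcript index as a term (log2 fold change 0.47, adjusted p = 0.0128) and in the fit of only these groups (adjusted p = 0.00565). With rapamycin in 9mTSCmKO it passed without 9mTSCmKO replicate 2 (log2 fold change 0.60, adjusted p = 0.0163). In 9mTSCmKO its 5 libraries spread from 18.6 to 60.5 CPM. The fourth FoxO gene, Foxo6, is low in muscle and was lower in TSCmKO at 9 months, at 1.66 to 2.83 CPM against 6.44 to 9.58 CPM in 9mCON (log2 fold change -1.65 ± 0.22 SE, adjusted p = 1.22e-07). It was lower at 3 months too (log2 fold change -1.15 ± 0.21 SE, adjusted p = 9.95e-05).

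Of a list of 19 genes that FoxO factors are known to activate, 10 were higher and 1 lower in 9mTSCmKO than in 9mCON, against 19.1% and 18.9% of all genes, with a median log2 fold change of 0.42 (-0.02 over all genes). At 3 months 10 were higher and 2 lower, against 11.4% and 8.32% of all genes (median 0.60, -0.02 over all genes). The list was chosen with earlier results of these data known, so its counts, here and below, are descriptions. Gadd45a, a stress gene linked to muscle atrophy, rose most, with 37.7 ± 14.8 CPM in 9mCON and 251 ± 46.6 CPM in 9mTSCmKO (log2 fold change 2.74 ± 0.28 SE, adjusted p = 4.8e-10). It had 28.5 ± 8.35 CPM in 3mCON and 110.5 ± 39.6 CPM in 3mTSCmKO (log2 fold change 1.96 ± 0.27 SE, adjusted p = 7.72e-07). The sestrin gene Sesn3 was higher at 9 months (log2 fold change 1.82 ± 0.20 SE, adjusted p = 3.74e-09), as was Cited2 (log2 fold change 1.57 ± 0.20 SE, adjusted p = 4.09e-08). Of the ubiquitin ligase genes, Trim63 was at 56.6 to 169 CPM in 3mTSCmKO, above the 32.5 to 41.2 CPM of 3mCON (log2 fold change 1.55 ± 0.26 SE, adjusted p = 2.24e-05). Fbxo32 had 549 ± 117 CPM in 3mCON and rose to 1134 ± 238 CPM in 3mTSCmKO (log2 fold change 1.05 ± 0.23 SE, adjusted p = 0.000885). Sod2, a mitochondrial antioxidant enzyme, was the exception at both ages, with log2 fold changes of -0.48 at 9 and -0.66 at 3 months. Ppargc1a, a coactivator of mitochondrial genes, was lower at 3 months (-1.13), a call lost without 3mCON replicate 3 (-0.74, adjusted p = 0.128). Many of these genes also answer to other regulators, such as ATF4 and p53.

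With rapamycin more genes of the same list fell than rose in TSCmKO muscle. In 3mTSCmKO 11 of 19 fell and 0 rose, against 13% and 10.6% of all genes, with a median of -0.51 (0.01 over all genes). In 9mTSCmKO 6 fell and 1 rose, against 16.8% and 15.8% of all genes, with a median of -0.23 (-0.04 over all genes), and the 7 of 19 that changed were a share near the 32.6% of genes that changed in either direction. Gadd45a came down to 21.3 ± 6.96 CPM at 3 months (log2 fold change -2.38 ± 0.27 SE, adjusted p = 3.19e-08) and to 66.1 ± 13.9 CPM at 9 months (log2 fold change -1.92 ± 0.27 SE, adjusted p = 8.41e-07). Trim63 fell to 28.6 ± 5.37 CPM at 3 months (log2 fold change -1.84 ± 0.26 SE, adjusted p = 1.51e-06) and to 28.0 ± 2.77 CPM at 9 months (log2 fold change -0.87 ± 0.26 SE, adjusted p = 0.00882). In 9mCON 1 of 19 passed, against 11.8% of genes, namely Sesn3, which was lower, a call lost without 9mCON replicate 3 (-0.63, adjusted p = 0.0551), 9mCON replicate 5 (-0.55, adjusted p = 0.0834) or 9mCON+RM replicate 1 (-0.60, adjusted p = 0.072). There 2 were lower without 9mCON+RM replicate 5, 1 was higher without 9mCON replicate 2 or 9mCON+RM replicate 2 or 4, and 2 were higher without 9mCON+RM replicate 3 and with the long-transcript index as a term. In the interaction of rapamycin and genotype 5 of 19 passed at 3 months, all lower (with Gadd45a, Trim63 and Fbxo32 the strongest), against 2.09% of genes lower. At 9 months 1 of 19 passed (Gadd45a, lower), against 2.31%, with 1 more, higher, without 9mCON replicate 1 and 2 lower with the index as a term. Without any 1 library the counts of targets higher in TSCmKO were 9 to 11 at 9 and 9 to 10 at 3 months, and without the 4 libraries low in long transcripts 11 and 10. The count of lower ones at 9 months, 1 with all libraries, was 2 without 9mCON replicate 2 or 9mTSCmKO replicate 1 and 3 without 9mTSCmKO replicate 2. Between treated genotypes at 9 months 8 of 19 were higher and 3 lower (median 0.24), against 20.6% of genes in either direction. In 9mTSCmKO+RM against vehicle 9mCON 8 of 19 were also higher and 3 lower, against 31.9% of genes. Without any 1 library 7 to 8 and 5 to 9 were higher in these 2 comparisons. At 3 months 2 were higher and 2 lower in each, against 10% and 16.7% of genes.

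**Figure D4:**
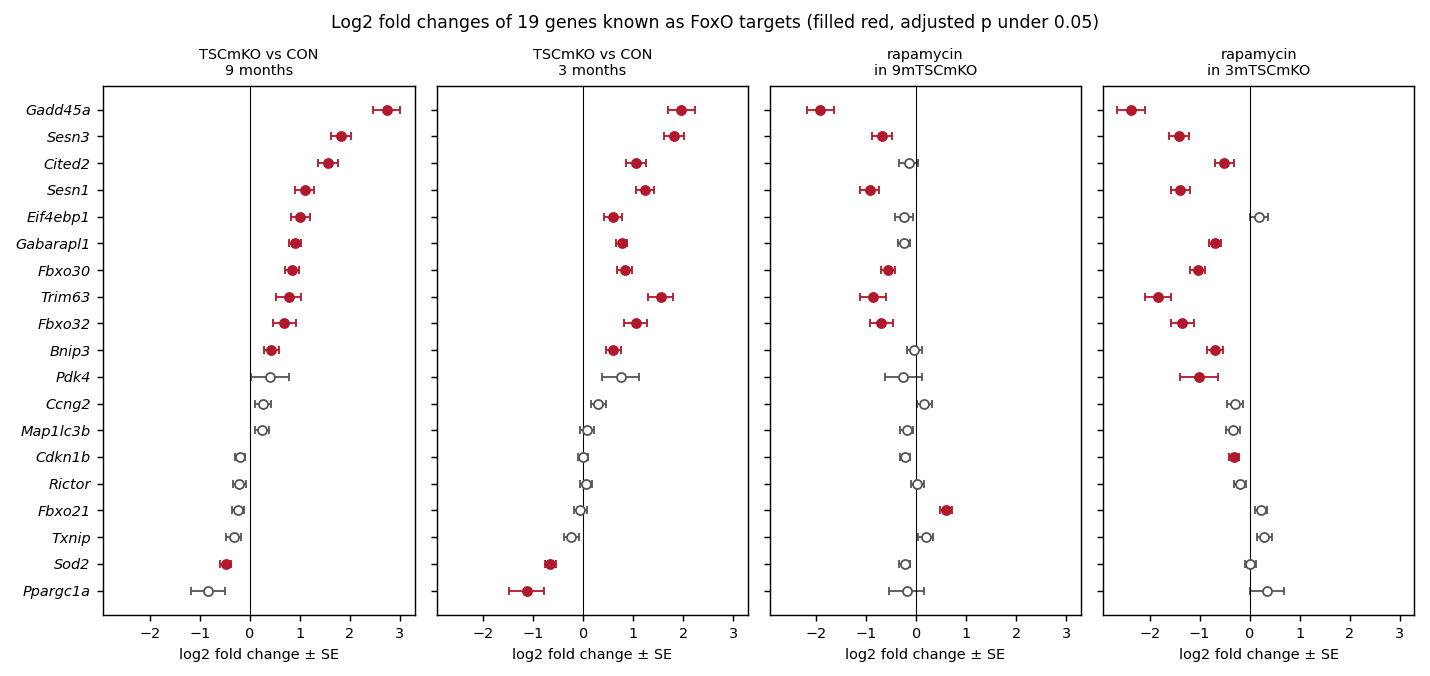
Log2 fold change ± SE (horizontal axis) of 19 genes known as FoxO targets (rows, ordered by the 9-month genotype difference) between genotypes and with rapamycin in TSCmKO at both ages (panels), with filled red symbols for an adjusted p under 0.05. Gadd45a lies at 2.74 between genotypes at 9 months and at -1.92 with rapamycin in 9mTSCmKO.

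Several ligands and binding proteins of the route were lower than in 9mCON in each of the other 3 groups at 9 months, which also had lower levels of connective tissue markers. Igf1, the growth factor made by several cell types of muscle, stood at 15.3 to 32.3 CPM in 9mCON and 6.69 to 22.7 CPM in 9mTSCmKO (log2 fold change -0.89 ± 0.26 SE, adjusted p = 0.00739). In 9mCON+RM it stood at 7.90 to 12.3 CPM, all below 9mCON (log2 fold change -1.15 ± 0.27 SE, adjusted p = 0.00373). Igfbp6 was lower in the same groups, with log2 fold changes of -1.50 in 9mTSCmKO and -1.07 in 9mCON+RM. Of 8 measured genes of this class, 4 were lower and 2 higher in 9mTSCmKO (Igf2 and Igfbp3), against 18.9% and 19.1% of all genes. The call for Igfbp3 was lost without 9mCON replicate 2 (0.52, adjusted p = 0.0807), 9mCON replicate 3 (0.51, adjusted p = 0.0892), 9mCON replicate 4 (0.60, adjusted p = 0.0559), 9mTSCmKO replicate 1 (0.56, adjusted p = 0.0673) or 9mTSCmKO replicate 2 (0.55, adjusted p = 0.0717). In 9mCON+RM 4 of 8 were lower, against 6.82% of genes, and 2 of 8 without 9mCON replicate 1 or 5 or without 9mCON+RM replicate 2, 4 or 5. In 9mTSCmKO+RM 7 of 8 were lower than in 9mCON, against 16.2% of genes, with a median log2 fold change of -0.81. Markers of fibroblasts (4 genes) summed to 771 to 1497 CPM in 9mCON, 274 to 849 CPM in 9mTSCmKO, 120.1 to 567 CPM in 9mCON+RM and 343 to 606 CPM in 9mTSCmKO+RM. In the latter 3 groups 3, 4 and 4 of 4 were lower and none was at 0. Tendon markers (5 genes) summed to 43.2 to 359, 13.6 to 45.1, 12.1 to 34.8 and 13.8 to 41.9 CPM in the same order, with 4 of 5 lower in each. Macrophage markers (5 genes) summed to 27.3 to 94.9, 25.0 to 44.0, 7.36 to 22.6 and 19.1 to 28.2 CPM. Of these 5, 1 was lower and 1 higher in 9mTSCmKO (Cd68, at 1.15 to 3.51 CPM in 9mCON and 4.41 to 10.9 CPM in 9mTSCmKO), 4 were lower in 9mCON+RM and 3 in 9mTSCmKO+RM. Their part in the ligand results, or in the fall of Irs2 in 9mCON+RM, was not tested. In whole muscle, fewer cells of a type and less RNA per cell cannot be told apart.

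Igf2 was higher in 9mTSCmKO than in 9mCON (log2 fold change 0.87 ± 0.14 SE, adjusted p = 6.91e-06) and lower in 3mTSCmKO than in 3mCON (log2 fold change -0.45 ± 0.14 SE, adjusted p = 0.02). The difference between the ages passed (interaction 1.32 on the log2 scale, adjusted p = 6.64e-05). The call at 3 months was lost without 3mCON replicate 1 (-0.40, adjusted p = 0.0717), 3mCON replicate 5 (-0.42, adjusted p = 0.0516) or 3mTSCmKO replicate 4 (-0.34, adjusted p = 0.102). Rapamycin lowered Igf2 in 9mTSCmKO (log2 fold change -0.72 ± 0.14 SE, adjusted p = 0.000152). Igfbp5 was lower in 3mTSCmKO (log2 fold change -0.85 ± 0.18 SE, adjusted p = 0.000603) and fell with rapamycin in 9mTSCmKO (log2 fold change -0.92 ± 0.18 SE, adjusted p = 0.000158).

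Some regulators around AKT changed between genotypes and with rapamycin, where changes were common among all genes. Between genotypes at 9 months 3 of 10 phosphatases and other inhibitors were higher and 1 lower, and 0 of 3 kinases passed. Of 8 AKT substrates 3 were higher and 1 lower, against 37.9% of all genes in either direction. With rapamycin 32.6% of all genes passed in 9mTSCmKO and 23.6% in 3mTSCmKO. Trib3, a pseudokinase that binds and inhibits AKT and a target of ATF4, was at 4.65 to 10.7 CPM in 9mTSCmKO and 0.487 to 2.36 CPM in 9mCON (log2 fold change 2.24 ± 0.35 SE, adjusted p = 3.33e-06). With rapamycin it was at 0.782 to 1.89 CPM (with log2 fold change -2.26 ± 0.35 SE, adjusted p = 5.34e-06). Pik3ip1, an inhibitor of PI3K, was higher in TSCmKO at 3 months (log2 fold change 0.86 ± 0.13 SE, adjusted p = 4.98e-06) and fell with rapamycin in 3mTSCmKO (log2 fold change -1.39 ± 0.13 SE, adjusted p = 3.74e-10). The PI3K regulatory subunit Pik3r3 was higher in 9mTSCmKO (log2 fold change 0.86 ± 0.19 SE, adjusted p = 0.000419). Of 8 PI3K genes 3 were higher and 0 lower there, against 19.1% of all genes higher and 37.9% in either direction. Without any 1 library 2 to 3 were higher, and 2 with insert size as a term. The catalytic subunit Pik3cd, mostly of leukocytes, fell with rapamycin in 3mTSCmKO (-0.95), 9mTSCmKO (-0.60), 9mCON (-0.71) and 3mCON (-0.52 on the log2 scale). In 3mCON it was the 1 of the 65 measured genes of the wider route that passed (adjusted p = 0.0366), against 0.679% of all genes, and the call was lost without 3mCON replicate 1 (-0.53, adjusted p = 0.0688), 3mCON replicate 3 (-0.43, adjusted p = 0.153), 3mCON replicate 4 (-0.50, adjusted p = 0.0954), 3mCON replicate 5 (-0.53, adjusted p = 0.0644), 3mCON+RM replicate 2 (-0.45, adjusted p = 0.16), 3mCON+RM replicate 3 (-0.49, adjusted p = 0.0981), 3mCON+RM replicate 4 (-0.54, adjusted p = 0.0776) or 3mCON+RM replicate 5 (-0.53, adjusted p = 0.0584). Among AKT substrates, the Rab regulators of glucose transport Tbc1d4 and Tbc1d1 were higher in 9mTSCmKO (0.85 and 0.70), and Tbc1d1 fell with rapamycin there (-0.79). Tsc2, the partner of Tsc1, rose with rapamycin in 9mTSCmKO (log2 fold change 0.72 ± 0.12 SE, adjusted p = 1.3e-05), in 9mCON (log2 fold change 0.43 ± 0.12 SE, adjusted p = 0.0159) and in 3mTSCmKO (log2 fold change 0.36 ± 0.12 SE, adjusted p = 0.0221). The call in 9mCON was lost without 9mCON replicate 1 (0.38, adjusted p = 0.0581) or 9mCON replicate 2 (0.35, adjusted p = 0.0549), and that in 3mTSCmKO without 3mTSCmKO replicate 1 (0.35, adjusted p = 0.0501), 3mTSCmKO replicate 4 (0.32, adjusted p = 0.069) or 3mTSCmKO+RM replicate 1 (0.33, adjusted p = 0.0554). Tsc1 itself fell with rapamycin in 9mTSCmKO (log2 fold change -0.49 ± 0.17 SE, adjusted p = 0.0249) and in 3mTSCmKO (log2 fold change -0.49 ± 0.17 SE, adjusted p = 0.0311). In control muscle Tsc1 did not pass, at -0.58 in 3mCON (adjusted p = 0.099) and -0.07 in 9mCON (adjusted p = 0.843). Across the 65 measured genes of the wider route, 25 were higher and 8 lower between genotypes at 9 months, with a median log2 fold change of 0.24, against 19.1% and 18.9% of all genes. This list too was chosen with earlier results of these data known.

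After rapamycin, TSCmKO muscle was also compared with vehicle-treated control muscle, groups that differ in both genotype and treatment. These differences therefore do not give the genotype difference alone, for which the comparisons of treated genotypes above serve. At 9 months 2 of 10 members passed (Irs2 and Foxo4), against 31.9% of genes, and at 3 months 2 of 10 (Irs2 and Akt2), against 16.7%. Irs2 was lower in 9mTSCmKO+RM than in 9mCON (log2 fold change -0.58 ± 0.19 SE, adjusted p = 0.017). The call was lost without 9mCON replicate 4 (-0.50, adjusted p = 0.051), 9mCON replicate 5 (-0.49, adjusted p = 0.0553) or 9mTSCmKO+RM replicate 4 (-0.50, adjusted p = 0.0567). It was also lost without the 4 libraries low in long transcripts (log2 fold change -0.52, adjusted p = 0.0596), with insert size as a term (log2 fold change -0.51, adjusted p = 0.0574), with limma (adjusted p = 0.0784 and 0.0863) and in the fit of only these groups (adjusted p = 0.0612). At 3 months Irs2 was lower in treated TSCmKO than in vehicle control muscle without overlap (log2 fold change -0.59 ± 0.19 SE, adjusted p = 0.0235), whereas the vehicle groups of that age did not pass (above). That call was lost without 3mCON replicate 3 (-0.54, adjusted p = 0.0598), 3mCON replicate 5 (-0.47, adjusted p = 0.0991), 3mTSCmKO+RM replicate 2 (-0.57, adjusted p = 0.0555) or 3mTSCmKO+RM replicate 4 (-0.51, adjusted p = 0.0854), and with limma (adjusted p = 0.0625 and 0.0671). Akt2 was lower at 3 months (log2 fold change -0.48 ± 0.10 SE, adjusted p = 0.000379), again without overlap, and this was kept without any 1 library. Irs2 and Akt2 were the 2 of 10 members whose groups did not overlap there, against 19.1% of genes. Of the markers, 2 of 5 for macrophages and 1 of 5 for tendon were higher there and 1 of 8 fiber markers each higher and lower, and their part was not tested. Foxo4 was higher at 9 months (log2 fold change 0.31 ± 0.12 SE, adjusted p = 0.0494). Foxo4 lost this call without 9mCON replicate 1 (0.24, adjusted p = 0.145), 9mCON replicate 2 (0.28, adjusted p = 0.101), 9mCON replicate 3 (0.34, adjusted p = 0.0528), 9mTSCmKO+RM replicate 1 (0.32, adjusted p = 0.0608), 9mTSCmKO+RM replicate 2 (0.27, adjusted p = 0.118), 9mTSCmKO+RM replicate 3 (0.33, adjusted p = 0.0568) or 9mTSCmKO+RM replicate 4 (0.31, adjusted p = 0.0762). It lost it also with limma (adjusted p = 0.0668 and 0.0677), in the fit of only these groups (adjusted p = 0.102), and with upper-quartile scaling, no filter on low counts or the replicate block (adjusted p = 0.0505, 0.0923 and 0.0515). In 9mTSCmKO+RM against 9mCON 2 of 4 Schwann cell, 1 of 4 adipocyte and 1 of 3 red blood cell markers were lower. Of 8 fiber markers 1 was higher and 1 lower there, and the part of these markers was not tested. The comparisons of treated TSCmKO with vehicle control muscle share their control libraries with the genotype comparisons above.

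With age, Irs2, Foxo3, Insr, Foxo4 and Akt2 were lower in TSCmKO, and the other 5 members did not pass in the fit of all libraries. Between 3mCON and 9mCON no member passed with edgeR, DESeq2 or limma, none had an unadjusted p under 0.05, and 1.02% of genes passed. Between 3mTSCmKO and 9mTSCmKO 5 of 10 members were lower, against 37.4% of genes in either direction and 18.3% lower. Irs2 fell (log2 fold change -0.90 ± 0.19 SE, adjusted p = 0.000346), as did Foxo3 (log2 fold change -0.69 ± 0.21 SE, adjusted p = 0.0103). Lower at 9 months were also Insr (log2 fold change -0.68 ± 0.17 SE, adjusted p = 0.00236), Foxo4 (log2 fold change -0.41 ± 0.12 SE, adjusted p = 0.00837) and Akt2 (log2 fold change -0.26 ± 0.10 SE, adjusted p = 0.0325). None of the 5 passed with insert size as a term, which rises with age in these libraries. The log2 fold changes were then -0.69 for Insr, -0.70 for Foxo3, -0.71 for Irs2, -0.28 for Foxo4 and -0.09 for Akt2, with adjusted p from 0.053 (Insr) to 0.687 (Akt2), so that those of Insr and Foxo3 were no smaller. Without 9mTSCmKO replicate 3 the log2 fold change of Foxo4 was -0.27 (adjusted p = 0.0438) and that of Foxo3 -0.54 (adjusted p = 0.0483). Akt2 also lost its call without 3mTSCmKO replicate 2 (-0.25, adjusted p = 0.0526), 3mTSCmKO replicate 4 (-0.25, adjusted p = 0.0507), 3mTSCmKO replicate 5 (-0.23, adjusted p = 0.0788), 9mTSCmKO replicate 1 (-0.25, adjusted p = 0.0568) or 9mTSCmKO replicate 3 (-0.19, adjusted p = 0.134). Without the 4 libraries low in long transcripts Insr, Irs2 and Foxo3 still passed, whereas Foxo4 (log2 fold change -0.25, adjusted p = 0.0546) and Akt2 (log2 fold change -0.17, adjusted p = 0.144) did not. With the long-transcript index as a term Irs2 and Akt2 passed, Insr passed at a smaller size (log2 fold change -0.27, adjusted p = 0.0251), and Foxo3 (log2 fold change -0.33, adjusted p = 0.102) and Foxo4 (log2 fold change -0.28, adjusted p = 0.0647) did not pass. In the fit of only these groups the calls for Foxo3, Foxo4 and Akt2 were lost (adjusted p = 0.0598, 0.096 and 0.155). Irs1 passed as lower with DESeq2 (log2 fold change -0.60, adjusted p = 0.0478), in the fit of only these groups (adjusted p = 0.0404) and without 3mTSCmKO replicate 4 (log2 fold change -0.75, adjusted p = 0.0253) or without 9mTSCmKO replicate 5. Akt1 passed as lower with limma (log2 fold changes -0.50 and -0.51, adjusted p = 0.0143 and 0.015), against -0.21 in the fit of all libraries, and without 9mTSCmKO replicate 5 (log2 fold change -0.32, adjusted p = 0.0435). Markers of other cell types were lower in 9mTSCmKO than in 3mTSCmKO too, namely 4 of 5 endothelial, 3 of 4 fibroblast, 4 of 5 tendon, 4 of 4 adipocyte and 2 of 3 red blood cell markers, as were 4 of 8 fiber markers. Of the tendon and Schwann cell markers 1 each was higher, and of the macrophage markers 1 was higher and 1 lower. Summed, endothelial markers stood at 311 to 358 CPM in 3mTSCmKO and 212 to 316 CPM in 9mTSCmKO, and fibroblast markers at 803 to 1335 and 274 to 849 CPM. Tendon markers summed to 92.7 to 306 and 13.6 to 45.1 CPM, adipocyte markers to 20.5 to 99.02 and 4.10 to 14.1 CPM and fiber markers to 93549 to 162581 and 91456 to 107906 CPM, with none at 0. Their part in the age results was not tested. The difference between genotypes in the age effect was tested for all members and passed for Irs2 alone.

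The long-transcript index moved with some members and not with others. Over the 36 libraries that were not low in it, log2 CPM and index correlated with r = 0.70 for Insr (Spearman's rho 0.52) and r = 0.62 for Foxo3 (rho 0.48). With the 2 libraries farthest from the median index left out r was 0.57 and 0.48. For Irs2 r was 0.40, for Akt2 0.11 and for Akt1 -0.08. Points share groups, library preparation and depth, so these values are descriptions. Foxo1, Igf1r and Insr were the lowest library of the group in all 4 libraries low in the index, and Akt2 was the highest in 2 of them. The genes most like a member over the 40 libraries were Bmpr2 for Insr (r = 0.93, 0.84 over the 36 libraries), Kif1c for Foxo4 (r = 0.92 and 0.87), Ctdsp1 for Akt2 (r = 0.86 and 0.83) and Plekha3 for Akt1 (r = 0.83 and 0.83). For Irs2 the closest gene was Epdr1, with r = 0.71 and 0.69.

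**Figure D5:**
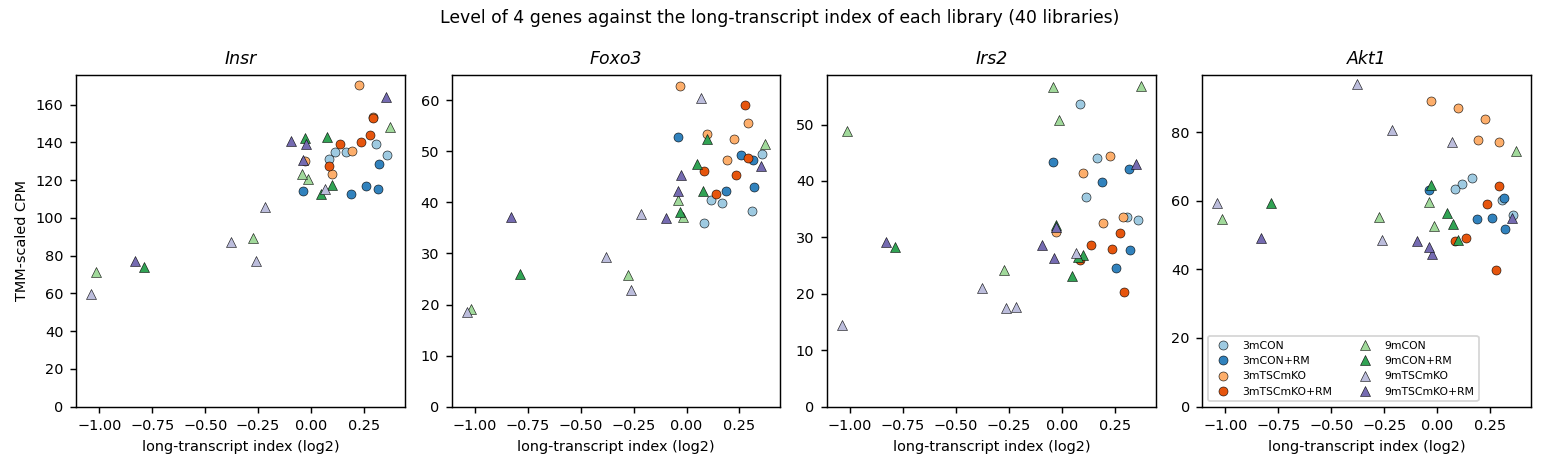
TMM-scaled CPM of Insr, Foxo3, Irs2 and Akt1 (vertical axes, from 0) against the long-transcript index of each library on the log2 scale (horizontal axis), with circles for 3 months and triangles for 9 months, colored by group. The 4 libraries at the left, at -1.04 to -0.79, have the lowest Insr of their groups, whereas Akt1 shows no such pattern.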

How the data were processed

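Poly(A) RNA of 40 EDL muscles was sequenced. The authors trimmed reads with Cutadapt 1.9.1 and assigned them with kallisto 0.43.1 to GRCm38 protein-coding transcripts, shared reads being split between transcripts. They deposited whole-number estimated counts per gene and TPM computed from these. Here the estimated counts were scaled by TMM, and 13543 of 22844 genes with at least 1 CPM in at least 5 libraries were tested with edgeR 4.0.16 (R 4.3.3; quasi-likelihood F-test, robust, two-sided, all libraries in 1 fit of 8 group means), with Benjamini-Hochberg adjustment over all genes and a threshold of 0.05, in 12 pairwise contrasts and 3 interactions. SE is that of the log2 fold change. TPM served for levels between genes and for limma 3.58.1 on log2(TPM + 1) or log2(TPM + 0.1). DESeq2 1.42.0, other scalings, no filter, insert size, a replicate block, fewer groups, an index of transcript length and left-out libraries were tried. The scripts were tested on simulated data.

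Members and lists were chosen with earlier results of these data known. 1 gene of the wider route is not reported here. Beside the members, up to 3 genes per role and contrast with the largest change among those past the threshold were named, and Sod2, Ppargc1a and Fbxo32 were named after their values were seen. Gene and promoter sequences and coordinates are on GRCm38. Same-numbered libraries of 2 groups correlated between -0.363 and 0.412 in their deviations from the group means, and in 0 of 12 comparisons did every pair exceed 0.1, so libraries were not paired. The variance between replicates was 12.2 to 179 times that of counting alone, so no library was a copy of another. Depth was 8883870 to 35224669 counts per library.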

Additional observations from a re-analysis of the deposited data

Results flagged for a closer look

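In 6 of 80 groups of 5 libraries (8 groups of each of 10 genes) 1 library stood apart from the rest by Dixon's test at the 95% level, where chance gives about 1 in 20. Insr was at 129 CPM in 3mCON+RM replicate 3, next to 117 CPM in the nearest library. Irs2 was at 24.3 CPM in 9mCON replicate 1, below the 48.9 CPM of the next. Grb10 was at 111 CPM in 3mTSCmKO+RM replicate 4, at 92.4 CPM in 9mTSCmKO replicate 2 and at 36.7 CPM in 9mCON replicate 2, the last being one of the 4 libraries low in long transcripts. Foxo1 was at 62.6 CPM in 3mCON replicate 2.

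Effects differed between groups, by a test of the difference itself, for 2 genes. The genotype difference of Irs2 changed by -1.14 on the log2 scale from 3 to 9 months, and its rapamycin effect was 1.496 higher in TSCmKO than in control muscle at 9 months. The rapamycin effect of Akt2 was lower in TSCmKO than in control muscle at 3 months, with a log2 difference of -0.50.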

How the results depend on the processing

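Of the 28 member calls, 19 were kept without any 1 library and 11 in every other setting. Counts of members that passed moved by over 1.5 times as follows. With only the groups of the contrast in the fit, 1 passed between genotypes at 9 months and 3 at 3 months, 3 with rapamycin in 9mTSCmKO, 4 in 3mTSCmKO and 1 in 9mCON, 4 between genotypes under rapamycin at 3 months, 0 in treated TSCmKO against vehicle CON at 9 months, 3 with age in TSCmKO and 2 in the interaction of rapamycin and genotype at 3 months. With limma at either pseudocount, 1 passed between genotypes at 9 months, with rapamycin in 3mTSCmKO, between genotypes under rapamycin at 9 months and in treated TSCmKO against vehicle CON at 3 months, and 0 between genotypes at 3 months, in treated TSCmKO against vehicle CON at 9 months and in the interaction at 3 months. Treated TSCmKO against vehicle CON at 9 months gave 1 with upper-quartile scaling, with no filter, with insert size as a term and without the 4 libraries low in long transcripts. Insert size as a term left 0 with age in TSCmKO, no filter left 0 in the interaction at 3 months, and DESeq2 gave 3 in that at 9 months. The settings on long transcripts were chosen after seeing the data. The index as a term gave 3 between genotypes at 3 months, 2 between genotypes under rapamycin at 3 months, 3 with age in TSCmKO and 2 in the rapamycin interactions at 9 and at 3 months. Leaving out the 4 libraries gave 2 between genotypes at 3 months, 3 with age in TSCmKO and 2 in the interaction at 9 months. The cause was not tested.

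Without any 1 library the counts were 1 to 3 between genotypes at 9 months and 1 to 2 at 3 months, 3 to 6 with rapamycin in 9mTSCmKO, 2 in 3mTSCmKO, 2 to 4 in 9mCON and 0 in 3mCON, 2 to 3 and 1 between genotypes under rapamycin at 9 and 3 months, 0 to 2 and 1 to 2 in treated TSCmKO against vehicle CON at 9 and 3 months, 0 with age in CON, 4 to 7 in TSCmKO, and 1, 1 to 3 and 0 to 1 in the interactions with age and with rapamycin at 9 and 3 months. The replicate block left 1 call in treated TSCmKO against vehicle CON at 9 months (Foxo4 was lost) and changed no other member call, and 0 to 3 of 5 libraries were closest to their own number. Another scaling moved the median of all genes by at most 0.054 on the log2 scale. The lowest count of a member in a library was 200 (Igf1r).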
